A study of Mus musculus with 6 samples.

Results

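Cd163, Cd5l, Mrc1, Msr1, Scarb1 and Cd68 encode scavenger receptors and close relatives of macrophages. They were found by gene symbol and are 6 of the 11489 genes in the table. The set was chosen by the FPKM difference between the 2 sorted groups, which was known at the time, so that difference is described here without a test. RNA was sequenced in bulk from mouse bone marrow cells sorted by flow cytometry, in 3 libraries of F4/80+ Epor-eGFP+ and 3 of F4/80+ Epor-eGFP- cells. Both groups were gated for F4/80, the macrophage antigen encoded by Adgre1, and eGFP reported on Epor, the gene of the erythropoietin receptor. In the labels both are erythroblastic island macrophages, which hold maturing erythroblasts around them. No strain, age, reporter design or number of animals is stated, so libraries of a group may not be separate animals, and p-values then measure a spread that may be technical.

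Scavenger receptors bind spent or altered material and bring it into the cell, and their families share this task more than a structure. Cd163 encodes a surface receptor of scavenger receptor cysteine-rich (SRCR) domains that takes up haemoglobin bound to haptoglobin. Cd5l encodes a secreted SRCR protein of tissue macrophages, and Mrc1 the mannose receptor CD206, a lectin that takes up glycoproteins. Msr1 encodes the class A receptor for modified lipoproteins, Scarb1 the class B receptor for high-density lipoprotein, and Cd68 a heavily glycosylated protein of late endosomes and lysosomes.

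The start regions of Cd163, Cd5l and Mrc1 are shown because these genes were higher together in Epor-eGFP+ cells, with Cd68, a widely used macrophage marker, beside them. Each window covers 250 bases before and 50 bases after the gene start (RefSeq, GRCm38.p6), written 5′ to 3′ on the strand of the gene. The windows are chr6:124304401-124304700, chr3:87357631-87357930 and chr2:14229164-14229463 on the plus strand and chr11:69666121-69666420 on the minus strand. Scarb1 and Msr1 are named only. Capitals mark matches on either strand to GAGGAA, a core bound by PU.1 and Spi-C, and to TGCTGA, a core bound by MAF factors.
Cd163: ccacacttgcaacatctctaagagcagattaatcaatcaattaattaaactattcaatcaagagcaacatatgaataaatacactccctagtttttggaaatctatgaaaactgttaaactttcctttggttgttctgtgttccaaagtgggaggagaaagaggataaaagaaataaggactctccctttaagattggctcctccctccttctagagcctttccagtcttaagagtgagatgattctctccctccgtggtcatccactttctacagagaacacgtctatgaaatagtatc
Cd5l: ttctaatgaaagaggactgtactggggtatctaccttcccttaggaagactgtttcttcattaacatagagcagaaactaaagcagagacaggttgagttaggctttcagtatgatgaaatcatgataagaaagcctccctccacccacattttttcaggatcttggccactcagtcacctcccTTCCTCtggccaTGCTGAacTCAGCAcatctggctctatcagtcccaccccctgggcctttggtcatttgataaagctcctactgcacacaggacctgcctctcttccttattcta
Mrc1: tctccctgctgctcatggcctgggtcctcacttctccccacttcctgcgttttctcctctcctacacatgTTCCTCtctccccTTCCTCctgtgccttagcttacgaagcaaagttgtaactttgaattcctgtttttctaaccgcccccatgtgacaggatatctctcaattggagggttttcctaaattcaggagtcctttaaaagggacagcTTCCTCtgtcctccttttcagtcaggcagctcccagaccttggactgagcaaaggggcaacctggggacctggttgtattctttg
Cd68: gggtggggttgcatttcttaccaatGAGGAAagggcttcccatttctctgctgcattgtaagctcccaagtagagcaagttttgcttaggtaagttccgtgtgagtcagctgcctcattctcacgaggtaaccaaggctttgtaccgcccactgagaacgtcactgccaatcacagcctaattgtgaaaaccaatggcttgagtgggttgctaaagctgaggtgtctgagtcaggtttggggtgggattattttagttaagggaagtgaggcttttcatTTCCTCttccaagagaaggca

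The windows differed in these letters. The Mrc1 window held GAGGAA 3 times, all on the opposite strand, the nearest at bases -35 to -30. The Cd68 window held it 2 times and the Cd5l window 1 time, and the Cd163 window held neither motif. Of 32851 windows of the same length, 28.3% held GAGGAA and 19.5% held TGCTGA. In the Cd5l window 2 TGCTGA matches faced each other at bases -54 to -41, as TGCTGANNTCAGCA, a form searched for after the sequence was seen. That form, which spans both TGCTGA matches, was in 2 of the 32851 windows, the Cd5l window included. Since the form was taken from that window, nothing is read from the count. TGANTCA, the AP-1 motif, was in the Cd68 window 2 times and in 7.81% of all windows. AGGTCA, a core of nuclear receptor sites, was in none of the 4 windows and in 16.3% of all. A match is a string of letters, and binding was not tested.

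FPKM corrects for gene length and library size, so levels can be set side by side between genes. Values by library are given in the order of library numbers 0, 1 and 2. Library totals were 467176 to 501037 FPKM in Epor-eGFP+ and 505141 to 519650 FPKM in Epor-eGFP- libraries, so they differed between groups without overlap. Read depth is unknown. Epor, a check of the sort, was at 6.67, 3.43 and 7.78 FPKM in the Epor-eGFP+ libraries, against 0.375, 0.414 and 0.217 FPKM in the Epor-eGFP- libraries. Adgre1 was at 143, 117 and 241 FPKM in the Epor-eGFP+ libraries, against 136, 132 and 139 FPKM in the Epor-eGFP- libraries. Bulk RNA cannot tell fewer cells of a type from less RNA per cell. By limma 22.7% of all 10964 tested genes rose in Epor-eGFP+ cells and 26.3% fell (adjusted p below 0.05). The marker counts that follow are to be read against these shares. Summed FPKM of 9 of 9 macrophage markers ran from 3682 to 4489.8 in Epor-eGFP+ and 875 to 11404 in Epor-eGFP- libraries. Of these markers 4 rose and 1 fell by limma (adjusted p below 0.05). Lyz2 made up most of each sum except in Epor-eGFP- library 2, where it was listed at 0. It was at 3047, 3914 and 3277 FPKM in the Epor-eGFP+ libraries, against 10411 and 10692 FPKM in Epor-eGFP- libraries 0 and 1. The sums of 12 of 13 neutrophil markers ran from 20016 to 25648 in Epor-eGFP+ and 25829 to 40099 in Epor-eGFP- libraries. Of these 9 fell, while the promyelocyte genes Mpo, at 3381 ± 436 FPKM in Epor-eGFP+ and 795 ± 338 FPKM in Epor-eGFP- cells, Elane, at 2385 ± 281 FPKM in Epor-eGFP+ and 492 ± 179 FPKM in Epor-eGFP- cells, and Prtn3, at 1798 ± 181 FPKM in Epor-eGFP+ and 413 ± 135 FPKM in Epor-eGFP- cells, rose. Sums of 10 of 10 monocyte markers ran from 1321 to 1639 in Epor-eGFP+ and 3222 to 4478 in Epor-eGFP- libraries, and all 10 fell. For 8 of 8 eosinophil markers they were 6384 to 15006 in Epor-eGFP+ and 13454 to 21876 in Epor-eGFP- libraries, with Prg2 listed at 0 in Epor-eGFP+ library 0, and 5 fell while Epx rose. For 10 of 12 erythroid markers they were 312 to 1090.2 in Epor-eGFP+ and 18.9 to 383 in Epor-eGFP- libraries, and 6 rose and 0 fell. For 7 of 7 B lineage markers they were 156 to 218 in Epor-eGFP+ and 106 to 369.6 in Epor-eGFP- libraries, and Vpreb1 alone passed, higher. For 6 of 7 T and NK markers they were 203 to 261 in Epor-eGFP+ and 52.8 to 95.1 in Epor-eGFP- libraries, mostly from Nkg7, at 227 ± 27.5 FPKM in Epor-eGFP+ and 66.3 ± 20.9 FPKM in Epor-eGFP- cells, which rose, while Klrb1c and Ncr1 fell. For 5 of 7 osteoclast markers they were 126 to 214 in Epor-eGFP+ and 41.5 to 50.5 in Epor-eGFP- libraries, with Dcstamp listed at 0 in Epor-eGFP- libraries 0 and 2. Acp5 and Ctsk, which carry most of that sum in Epor-eGFP+ cells, rose, while Itgb3, at 9.51 ± 3.23 FPKM in Epor-eGFP+ and 25.4 ± 4.05 FPKM in Epor-eGFP- cells, fell. For 5 of 5 megakaryocyte markers they were 80.4 to 170.4 in Epor-eGFP+ and 31.7 to 90.2 in Epor-eGFP- libraries, and Pf4 alone passed, higher. The part of these cells in the values of the scavenger genes was not tested.

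Cd163, Cd5l and Mrc1 were 23.0 to 62.5 times as high in Epor-eGFP+ as in Epor-eGFP- cells by group means. Msr1 was lower in Epor-eGFP+ cells, and Scarb1 and Cd68 overlapped between groups. Of the 6 genes, 3 were higher and 1 was lower with no overlap, where 28.4% and 31.9% of all 10964 tested genes were. Tested genes had a mean of at least 1 FPKM, which all 6 passed. Since the genes were chosen by this contrast, nothing is read from that comparison.

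Cd163 was at 115, 58.2 and 267 FPKM in the Epor-eGFP+ libraries, against 4.34, 2.66 and 3.19 FPKM in the Epor-eGFP- libraries. Every Epor-eGFP+ library lay above every Epor-eGFP- library, and Epor-eGFP+ library 2 stood highest. The means were 147 ± 108 FPKM in Epor-eGFP+ and 3.40 ± 0.857 FPKM in Epor-eGFP- cells (SD, n = 3 each), a ratio of 43.2. The 9 ratios between single libraries ran from 13.4 to 100.1, and without Epor-eGFP+ library 2 the ratio of means was 25.5.

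Cd5l had 235, 84.2 and 497 FPKM in the Epor-eGFP+ libraries, against 6.89, 2.66 and 3.52 FPKM in the Epor-eGFP- libraries. The groups did not overlap, and in each group Cd5l had the largest coefficient of variation of the 6 genes, 76.9% in Epor-eGFP+ and 51.4% in Epor-eGFP-. The means were 272 ± 209 FPKM in Epor-eGFP+ and 4.36 ± 2.24 FPKM in Epor-eGFP- cells, a ratio of 62.5, or 36.6 without Epor-eGFP+ library 2. On the log2(FPKM + 1) scale the difference of 5.41 was the second largest positive one among tested genes.

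Mrc1 stood at 147, 95.9 and 340.4 FPKM in the Epor-eGFP+ libraries, against 7.57, 8.81 and 9.02 FPKM in the Epor-eGFP- libraries. Its Epor-eGFP- values lay close together and far below each Epor-eGFP+ value. The means were 195 ± 129 FPKM in Epor-eGFP+ and 8.47 ± 0.787 FPKM in Epor-eGFP- cells, a ratio of 23.0, or 14.4 without Epor-eGFP+ library 2. Mrc1 hosts the miRNA gene Mir511, which overlaps no annotated exon of Mrc1.

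Msr1 ran the other way, at 10.8, 14.7 and 11.8 FPKM in the Epor-eGFP+ libraries, against 30.8, 34.6 and 43.5 FPKM in the Epor-eGFP- libraries. The groups did not overlap, and the spread within each was small. The means were 12.4 ± 2.05 FPKM in Epor-eGFP+ and 36.3 ± 6.50 FPKM in Epor-eGFP- cells, a ratio of 0.342, which stayed between 0.311 and 0.380 with any single library left out. Msr1 was the lowest of the 6 genes in every Epor-eGFP+ library.

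Scarb1 was at 67.8, 67.0 and 90.3 FPKM in the Epor-eGFP+ libraries, against 69.8, 79.3 and 92.8 FPKM in the Epor-eGFP- libraries. The groups lay across each other. The means were 75.0 ± 13.2 FPKM in Epor-eGFP+ and 80.6 ± 11.5 FPKM in Epor-eGFP- cells, a difference smaller than either SD.

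Cd68 was the highest of the 6 genes in every library, at 296, 199 and 511 FPKM in the Epor-eGFP+ libraries, against 175, 152 and 250.1 FPKM in the Epor-eGFP- libraries. Epor-eGFP+ library 1 lay below Epor-eGFP- library 2, so the groups overlapped. The means were 335 ± 159 FPKM in Epor-eGFP+ and 193 ± 51.1 FPKM in Epor-eGFP- cells, a ratio of 1.74, or 1.29 without Epor-eGFP+ library 2.

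**Figure D1:**
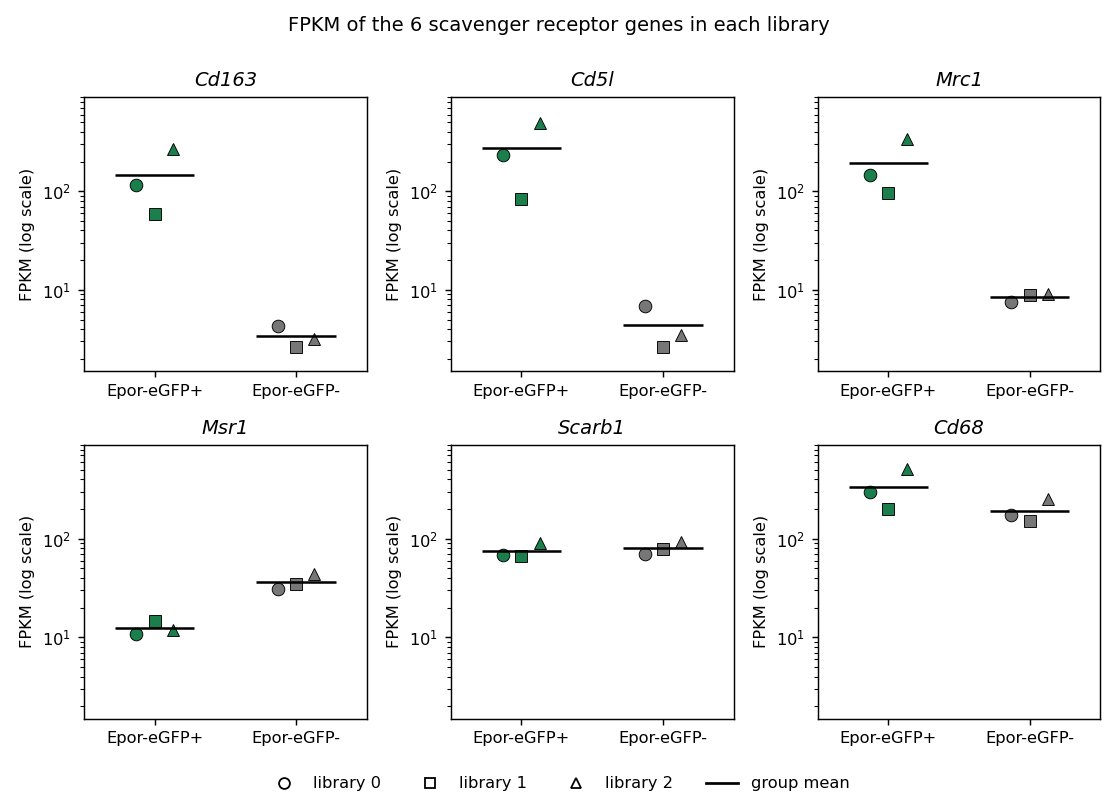
FPKM on a log axis for each of the 6 genes, a point for each of 3 Epor-eGFP+ and 3 Epor-eGFP- libraries, shaped by library number, with the group mean as a line. Cd163, Cd5l and Mrc1 lie 10.6 to 187 times as high in any Epor-eGFP+ library as in any Epor-eGFP- library, Msr1 lies lower without overlap, and Scarb1 and Cd68 overlap.

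The order of the genes changed between groups, with Cd68 at the top in both. In Epor-eGFP+ libraries 0 and 2 the order from high to low was Cd68, Cd5l, Mrc1, Cd163, Scarb1 and Msr1, and in Epor-eGFP+ library 1 Mrc1 passed Cd5l and Scarb1 passed Cd163. In the Epor-eGFP- libraries the order was Cd68, Scarb1, Msr1 and Mrc1, with Cd5l and Cd163 at the low end in either order. In Epor-eGFP+ cells the means of neighbours in the order differed by less than the larger SD for each pair except Scarb1 and Msr1. In Epor-eGFP- cells Cd5l and Cd163 were the one pair of neighbours within that limit. By rank among 11489 genes, Cd163 held places 572, 1279 and 259 in the Epor-eGFP+ libraries, against 8526, 9448 and 9056 in the Epor-eGFP- libraries. Scarb1 held places from 817 to 1080 in Epor-eGFP+ and from 823 to 1097 in Epor-eGFP- libraries.

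Together the 6 genes summed to 872, 519 and 1717 FPKM in the Epor-eGFP+ libraries, against 295, 280.4 and 402 FPKM in the Epor-eGFP- libraries. Cd163 made up 11.2% to 15.5% of that sum in Epor-eGFP+ and 0.793% to 1.47% in Epor-eGFP- libraries. Cd5l made up 16.2% to 29.0% in Epor-eGFP+ and 0.875% to 2.34% in Epor-eGFP-, and Mrc1 16.9% to 19.8% in Epor-eGFP+ and 2.24% to 3.14% in Epor-eGFP-. Of these genes Mrc1 kept the narrowest share in Epor-eGFP+ cells. Cd68 held 29.7% to 38.4% in Epor-eGFP+ and 54.3% to 62.2% in Epor-eGFP-. Scarb1 held 5.26% to 12.9% in Epor-eGFP+ and 23.1% to 28.3% in Epor-eGFP-, and Msr1 0.685% to 2.84% in Epor-eGFP+ and 10.5% to 12.4% in Epor-eGFP-.

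**Figure D2:**
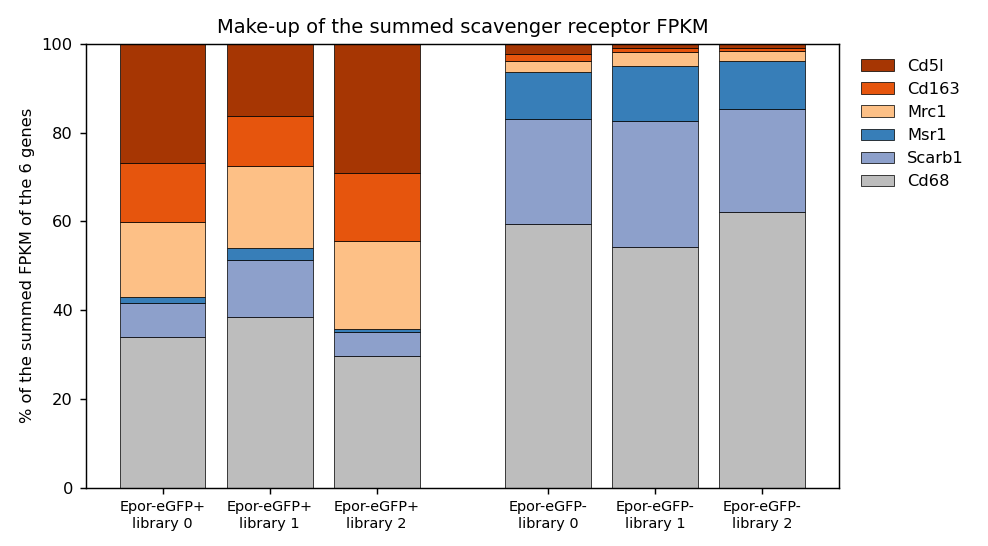
Percent of the summed FPKM of the 6 genes that each gene made up, a bar for each library, with the Epor-eGFP+ libraries left of the Epor-eGFP- libraries. Cd68, Scarb1 and Msr1 fill most of each Epor-eGFP- bar, with Cd68 at 54.3% to 62.2%, while Cd5l, Mrc1 and Cd163 take more of each Epor-eGFP+ bar, with Cd5l at 16.2% to 29.0%.

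Levels of the higher genes moved in step between Epor-eGFP+ libraries, and the ratios between them varied less than the levels did. The highest of these libraries exceeded the lowest 4.58 times for Cd163, 5.91 times for Cd5l and 3.55 times for Mrc1. The Cd5l to Cd163 ratio was 2.03, 1.45 and 1.87 in the Epor-eGFP+ libraries, against 1.59, 0.997 and 1.10 in the Epor-eGFP- libraries, so the groups overlapped. The Mrc1 to Cd163 ratio was 1.28, 1.65 and 1.28 in the Epor-eGFP+ libraries, against 1.74, 3.31 and 2.83 in the Epor-eGFP- libraries, and was lower in every Epor-eGFP+ library. The Mrc1 to Msr1 ratio was 13.6, 6.51 and 29.0 in the Epor-eGFP+ libraries, against 0.245, 0.254 and 0.207 in the Epor-eGFP- libraries. Mrc1 thus stood above Msr1 in each Epor-eGFP+ library and below it in each Epor-eGFP- library. Cd163, Cd5l, Mrc1, Scarb1, Cd68 and also Adgre1 were highest in Epor-eGFP+ library 2 and lowest in Epor-eGFP+ library 1, an order shown by 23.9% of all tested genes, while Msr1 was highest in Epor-eGFP+ library 1. What sets that order was not tested.

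Other scavenger receptors moved both ways. Of 22 further receptors 13 were tested, and 5 rose, 3 fell and 5 did not pass (limma on log2(FPKM + 1), adjusted p below 0.05). By that rule 22.7% of all tested genes rose and 26.3% fell, 49.0% in either direction, and after rescaling to a common total 3053 rose and 2082 fell, against 2489 and 2883 as deposited. The median log2 fold change of the 13 was 0.18, against -0.01 over all tested genes. Stab2, an endocytic receptor for hyaluronan also known from sinus endothelium, was at 8.75, 4.23 and 20.9 FPKM in the Epor-eGFP+ libraries, against 0.388, 0.229 and 0.303 FPKM in the Epor-eGFP- libraries (log2 fold change 2.99, SE 0.46, limma adjusted p = 0.00264). Its relative Stab1 was at 6.79, 5.56 and 8.06 FPKM in the Epor-eGFP+ libraries, against 0.406, 0.210 and 0.265 FPKM in the Epor-eGFP- libraries (log2 fold change 2.58, SE 0.14, limma adjusted p = 0.000245). Marco, a class A receptor like Msr1, was at 6.19 ± 3.66 FPKM in Epor-eGFP+ and 0.113 ± 0.0971 FPKM in Epor-eGFP- cells (log2 fold change 2.56, SE 0.36, limma adjusted p = 0.00195). Marco thus rose, while the Msr1 difference had the opposite sign.

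Cxcl16, a membrane chemokine that binds oxidised lipoprotein, rose by 2.11 (SE 0.13, limma adjusted p = 0.000265) on the log2 scale. Cd36, a class B receptor for fatty acids and oxidised lipoprotein, was at 19.1 ± 3.01 FPKM in Epor-eGFP+ and 9.19 ± 3.86 FPKM in Epor-eGFP- cells (log2 fold change 1.04, SE 0.29, limma adjusted p = 0.0220). Without Epor-eGFP+ library 0 the limma adjusted p of Cd36 was 0.0737 (0.0049 to 0.0743 over the alternatives). Cd44, the hyaluronan receptor, fell, at 62.6 ± 5.12 FPKM in Epor-eGFP+ and 127 ± 5.58 FPKM in Epor-eGFP- cells (log2 fold change -1.01, SE 0.08, limma adjusted p = 0.000442). Clec7a, the beta-glucan receptor dectin-1 (-0.78), and Ager (-0.58), named to complete the count, fell as well. In class B, Scarb2 was at 53.6 ± 17.0 FPKM in Epor-eGFP+ and 46.6 ± 9.65 FPKM in Epor-eGFP- cells and did not pass, so Cd36 alone of the tested relatives of Scarb1 rose. Of 10 endothelial and stromal markers 4 were in the table, Pecam1, Pdgfrb, Cxcl12 and Col1a1, while Cdh5, Kdr, Emcn, Tek, Lyve1 and Lepr were absent. Sums were 26.6 to 31.2 in Epor-eGFP+ and 26.3 to 34.2 in Epor-eGFP- libraries. Pecam1 made up most of them, at 20.5 ± 3.78 FPKM in Epor-eGFP+ and 26.9 ± 3.26 FPKM in Epor-eGFP- cells, and did not pass. Cxcl12 and Col1a1 rose. The part of such cells in the Stab2 difference was not tested.

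Of 9 other SRCR genes 3 were tested. Lgals3bp, a secreted glycoprotein, was at 167 ± 89.1 FPKM in Epor-eGFP+ and 64.3 ± 8.18 FPKM in Epor-eGFP- cells (log2 fold change 1.24, SE 0.34, limma adjusted p = 0.0218). Its limma adjusted p was 0.0528 without Epor-eGFP+ library 0, 0.0729 without Epor-eGFP- library 0 and 0.0548 without Epor-eGFP- library 1 (0.00664 to 0.146 over the alternatives). Loxl3 was at 1.99 ± 0.538 FPKM in Epor-eGFP+ and 0.699 ± 0.103 FPKM in Epor-eGFP- cells and rose, and Ssc4d was at 1.04 ± 0.0381 FPKM in Epor-eGFP+ and 1.74 ± 0.101 FPKM in Epor-eGFP- cells and fell. In the mannose receptor family, Ly75, the endocytic receptor DEC-205, was the one tested relative of Mrc1, at 6.33 ± 1.33 FPKM in Epor-eGFP+ and 10.2 ± 2.61 FPKM in Epor-eGFP- cells (log2 fold change -0.60, SE 0.20, limma adjusted p = 0.0434). The limma adjusted p of Ly75 was 0.116 without Epor-eGFP+ library 0, 0.104 without Epor-eGFP+ library 2, 0.131 without Epor-eGFP- library 0 and 0.101 without Epor-eGFP- library 1 (0.0165 to 0.277 over the alternatives). In the lysosomal family of Cd68, Lamp2 fell by 0.33 (SE 0.08, limma adjusted p = 0.0157) on the log2 scale, with a limma adjusted p of 0.0677 without Epor-eGFP+ library 0 (0.00837 to 0.177 over the alternatives). Lamp1 was at 461 ± 153 FPKM in Epor-eGFP+ and 428 ± 60.3 FPKM in Epor-eGFP- cells and did not pass.

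**Figure D3:**
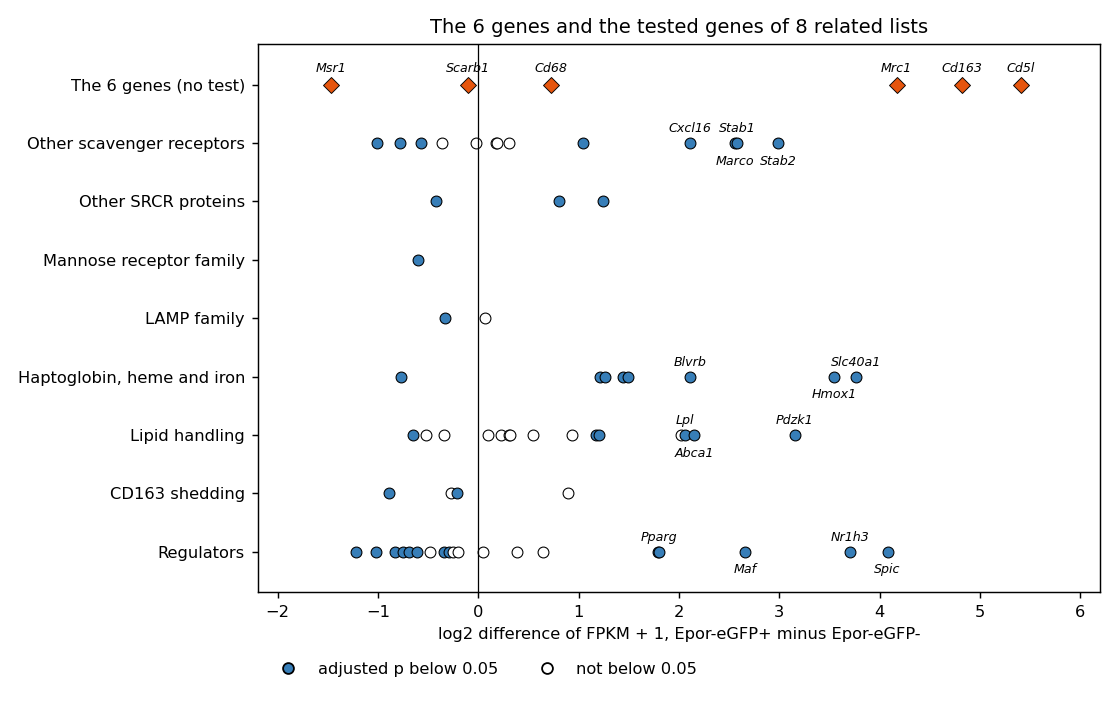
The log2 difference of FPKM + 1, Epor-eGFP+ minus Epor-eGFP-, for the 6 genes (diamonds, with no test) and for every tested gene of 8 related lists (circles, filled where the limma adjusted p is below 0.05). Cd5l lies at 5.41 and Msr1 at -1.47, and other scavenger receptors run from Stab2 at 2.99 down to Cd44 at -1.01.

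Most genes of haptoglobin, heme and iron handling, the cargo of Cd163, rose. Of 8 tested, 7 rose and 1 fell (median log2 fold change 1.47, against -0.01 over all tested genes). Over all tested genes 22.7% rose and 26.3% fell. Hmox1, which opens the heme ring, was at 983, 439.6 and 1754 FPKM in the Epor-eGFP+ libraries, against 81.6, 60.6 and 92.6 FPKM in the Epor-eGFP- libraries (log2 fold change 3.55, SE 0.46, limma adjusted p = 0.00148). Slc40a1, the iron exporter ferroportin, was at 364 ± 226 FPKM in Epor-eGFP+ and 22.9 ± 5.23 FPKM in Epor-eGFP- cells (log2 fold change 3.77, SE 0.43, limma adjusted p = 0.000992). Blvrb, a biliverdin reductase, was at 140.2 ± 65.3 FPKM in Epor-eGFP+ and 29.6 ± 3.91 FPKM in Epor-eGFP- cells, and Slc48a1, a heme transporter, at 138 ± 57.6 FPKM in Epor-eGFP+ and 45.5 ± 2.30 FPKM in Epor-eGFP- cells. The ferritin genes Fth1 (1.44) and Ftl1 (1.26) rose on the log2 scale, and since ferritin genes have pseudogenes their values are uncertain singly. The limma adjusted p of Ftl1 was 0.0618 without Epor-eGFP+ library 0, 0.0662 without Epor-eGFP- library 0 and 0.0629 without Epor-eGFP- library 1 (0.0051 to 0.151 over the alternatives). Hp, haptoglobin, was the gene that fell, at 340.4 ± 43.6 FPKM in Epor-eGFP+ and 579.9 ± 58.2 FPKM in Epor-eGFP- cells (log2 fold change -0.77, SE 0.12, limma adjusted p = 0.00275). Neutrophils and their precursors also make Hp. Their markers moved both ways, with 9 lower and Mpo, Elane and Prtn3 higher, and their part in the Hp difference was not tested. All 7 that rose were highest in Epor-eGFP+ library 2 and lowest in Epor-eGFP+ library 1, as Cd163 was. Of all 2489 genes that rose, 29.4% showed this order.

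Of 15 genes of lipid handling, which serve the lipoprotein cargo of Scarb1 and Msr1, 5 rose, 1 fell and 9 did not pass (median log2 fold change 0.54). The shares over all tested genes were 22.7% higher and 26.3% lower. With library number added to the fit as a block 8 of the 15 rose and 3 fell. Pdzk1, the scaffold that holds the Scarb1 product at the liver cell surface, was at 21.6, 7.91 and 45.3 FPKM in the Epor-eGFP+ libraries, against 2.13, 0.920 and 1.20 FPKM in the Epor-eGFP- libraries (log2 fold change 3.15, SE 0.55, limma adjusted p = 0.00413). The groups did not overlap for Pdzk1, whereas they did for Scarb1. Abca1, which exports cholesterol, rose by 2.15 (SE 0.38, limma adjusted p = 0.00409) on the log2 scale, and Lpl, lipoprotein lipase, was at 123 ± 45.6 FPKM in Epor-eGFP+ and 27.9 ± 5.65 FPKM in Epor-eGFP- cells (log2 fold change 2.06, SE 0.26, limma adjusted p = 0.00128). Lipa, the lysosomal lipase, rose by 1.20 (SE 0.27, limma adjusted p = 0.00988) and Fabp5, a fatty acid binding protein, by 1.17 (SE 0.23, limma adjusted p = 0.00615) on the log2 scale. Soat1, which esterifies cholesterol, fell by 0.65 (SE 0.16, limma adjusted p = 0.0136), with a limma adjusted p of 0.0515 without Epor-eGFP+ library 0 (0.00275 to 0.105 over the alternatives).

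The protease ADAM17 cuts the outer part of CD163 off the cell. Of 4 tested genes of shedding 2 fell and 2 did not pass (median log2 fold change -0.245), and with the replicate block 1 rose and 3 fell. Without the block, 22.7% of all tested genes rose and 26.3% fell. Adam17 itself was at 31.0 ± 2.44 FPKM in Epor-eGFP+ and 37.8 ± 4.22 FPKM in Epor-eGFP- cells, lower without overlap, and did not pass (log2 fold change -0.27, SE 0.10, limma adjusted p = 0.0607). With the replicate block, Adam17 was among the 3 that fell. Rhbdf2, which carries ADAM17 to the cell surface, was at 12.3 ± 1.65 FPKM in Epor-eGFP+ and 23.8 ± 4.72 FPKM in Epor-eGFP- cells (log2 fold change -0.89, SE 0.15, limma adjusted p = 0.00407). Adam10 fell by 0.22 (SE 0.07, limma adjusted p = 0.0377) on the log2 scale. Its limma adjusted p was above the threshold in 5 of the 6 fits that each left out 1 library, all but the fit without Epor-eGFP+ library 1, at 0.0692 to 0.136, and was 0.291 after rescaling to a common total (0.0282 to 0.339 over the alternatives).

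Transcription factors and cytokine receptors listed as regulators moved both ways. Of 19 tested, 5 rose, 8 fell and 6 did not pass (median log2 fold change -0.25). Among all tested genes 22.7% rose and 26.3% fell, so nothing is read from this split. Spic, a factor of red pulp macrophages, was at 55.0, 30.2 and 105 FPKM in the Epor-eGFP+ libraries, against 3.23, 1.93 and 2.09 FPKM in the Epor-eGFP- libraries (log2 fold change 4.08, SE 0.41, limma adjusted p = 0.000699). Nr1h3, which encodes the sterol receptor LXR alpha, known to act on Cd5l, was at 31.2, 22.4 and 60.9 FPKM in the Epor-eGFP+ libraries, against 2.04, 1.48 and 1.82 FPKM in the Epor-eGFP- libraries (log2 fold change 3.70, SE 0.33, limma adjusted p = 0.000516). Maf, a macrophage factor, was at 32.7 ± 15.0 FPKM in Epor-eGFP+ and 4.10 ± 1.09 FPKM in Epor-eGFP- cells, and Pparg, a lipid-sensing nuclear receptor, at 39.2 ± 20.4 FPKM in Epor-eGFP+ and 9.92 ± 2.91 FPKM in Epor-eGFP- cells. All 5 that rose were highest in Epor-eGFP+ library 2 and lowest in Epor-eGFP+ library 1, as Cd163, Cd5l and Mrc1 were. The same order was shown by all 5 lipid genes and 3 of 5 other scavenger receptors that rose. It was shown by 0 of 6 erythroid markers that rose and by 29.4% of all genes that rose. The tested erythroid markers that did not pass, Hba-a1, Hba-a2, Hbb-bs and Alas2, did show it. So did the summed FPKM of erythroid markers, at 648, 312 and 1090 in the Epor-eGFP+ libraries. The part of erythroid RNA in that order was not tested. Bach1, a repressor that heme releases from DNA, fell, at 19.8 ± 1.56 FPKM in Epor-eGFP+ and 47.7 ± 8.59 FPKM in Epor-eGFP- cells (log2 fold change -1.22, SE 0.13, limma adjusted p = 0.000861). The other 7 that fell had log2 fold changes from -1.02 (Il10ra) to -0.29 (Nfe2l2).

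Genes nearest in pattern to each of the 6 were ranked by the root mean square difference between log2(FPKM + 1) profiles over the 6 libraries, each centred on its mean, with no test. Nearest to Cd163 were Itgad, an integrin chain (0.14), C1qb (0.18), Slco2b1, an organic anion transporter (0.22), C1qc (0.22) and C1qa (0.23). Nearest to Cd5l were Fcna, ficolin A (0.19), C1qc (0.28), Itgad (0.29), C1qa (0.31) and Cd163 (0.37). Cd163 and Cd5l thus had Itgad, C1qc and C1qa in common among their nearest genes. The profiles span both groups and were not scaled, so a like group difference brings genes near. That difference was 5.02 for Itgad, 5.21 for C1qc and 5.23 for C1qa, beside 4.82 for Cd163 and 5.41 for Cd5l. Since the 6 genes were chosen by it, nothing further is read from the shared neighbours. Nearest to Mrc1 were Axl (0.14), Col14a1 (0.18), Igf1 (0.20), Mertk (0.23) and Cd4 (0.25), of which Axl and Mertk encode receptors for apoptotic cells. Axl was at 367 ± 237 FPKM in Epor-eGFP+ and 18.7 ± 1.14 FPKM in Epor-eGFP- cells.

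Neighbours of the remaining genes differed less between groups. Nearest to Msr1 were Ptpro (0.07), Arhgap26 (0.08), Atrnl1 (0.08), Mcemp1 (0.08) and Ms4a6c (0.09), and Ptpro was at 11.4 ± 2.33 FPKM in Epor-eGFP+ and 34.5 ± 7.43 FPKM in Epor-eGFP- cells. Nearest to Scarb1 were Tor3a (0.04), App (0.06), Tep1 (0.06), Panx1 (0.06) and Cyfip1 (0.06). Nearest to Cd68 were Bpgm (0.08), Amz1 (0.08), Trem2, a lipid-sensing receptor of macrophages (0.10), Atp13a2 (0.11) and Tmem106a (0.11), and Trem2 was at 34.0 ± 14.6 FPKM in Epor-eGFP+ and 18.5 ± 3.79 FPKM in Epor-eGFP- cells. Among the 6 genes the distance was smallest for Cd163 and Cd5l (0.37), followed by Cd163 and Mrc1 (0.41).

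**Figure D4:**
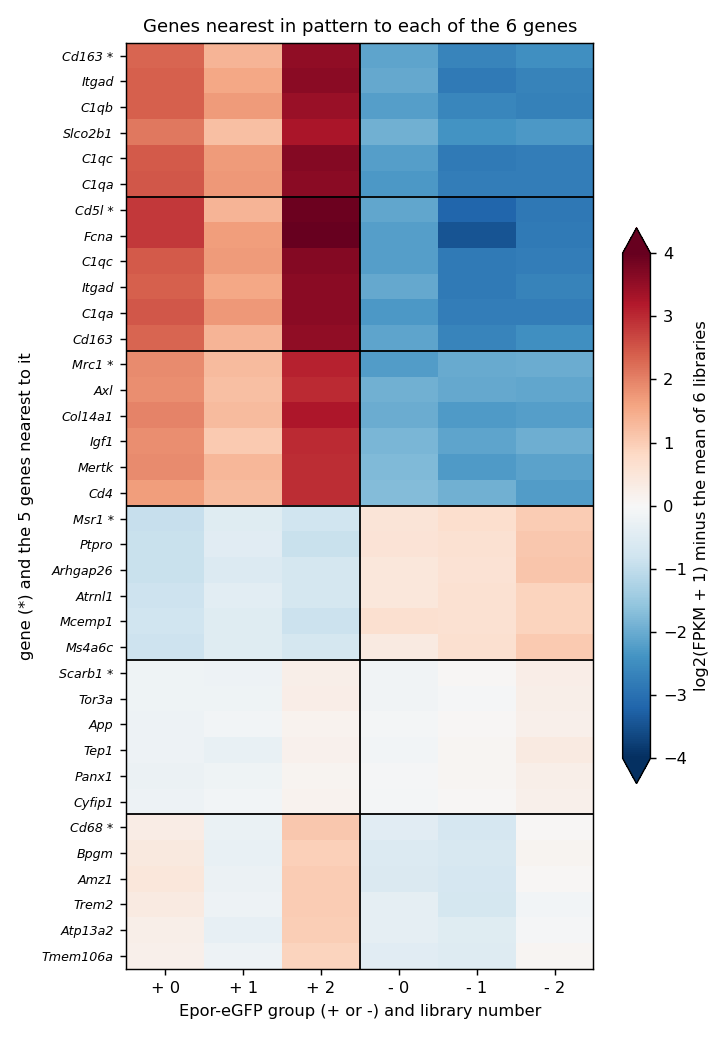
Log2(FPKM + 1) minus the mean of the 6 libraries, as colour, for each of the 6 genes (starred) and the 5 genes nearest to it, with Epor-eGFP+ libraries left of Epor-eGFP- libraries. Cd163, Cd5l and Mrc1 are highest in Epor-eGFP+ library 2, Msr1 has the opposite sign, and Scarb1 stays near 0.

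The genes lie on 6 chromosomes (GENCODE M21, GRCm38), and each value is for the whole gene. Cd163 spans 124304656 to 124330527 of chromosome 6, Cd5l 87357881 to 87371073 of chromosome 3 and Mrc1 14229392 to 14332057 of chromosome 2, on the plus strand. Msr1 spans 39581685 to 39642673 of chromosome 8, Scarb1 125277087 to 125341094 of chromosome 5 and Cd68 69664213 to 69666153 of chromosome 11, on the minus strand. The transcript with most exons has 17 for Cd163, 6 for Cd5l, 30 for Mrc1, 10 for Msr1, 13 for Scarb1 and 6 for Cd68. No annotated gene overlaps an exon of any of the 6.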

How the data were processed

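The authors deposited 1 table of FPKM with a column for each of 6 libraries, prepared from total RNA with a TruSeq kit per the labels' protocols. The submitters' processing notes name Cufflinks 2.2.1, TopHat2 2.1.0, Trimmomatic 0.35, bcl2fastq 2.19.1.403 and mm10, without roles. How genes were annotated, filtered or scaled is not given in the sources used here. FPKM hold no read depth, so the depth behind a value is unknown and counting error cannot be given. Cufflinks estimates how reads divide between similar genes.

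Columns carry a group and a number (0 to 2) that differs from the numbering of the labels (1 to 3), so each was assigned to its group and is called by its number. Deviations from the group means correlated at 0.25, 0.38 and 0.35 between libraries numbered 0, 1 and 2, all over 0.1, the limit set for pairing. Between libraries of unlike number they ran from -0.39 to 0.0654. Deviations sum to 0 within a group, so these correlations are not independent of each other. The pairing comes from the data alone, and a fit that adds the replicate block was run beside the one without it. Calls and p-values are from the fit without the block, which ignores any pairing, unless another setting is named.

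Genes averaging 1 FPKM or more (10964) were fitted as log2(FPKM + 1) on group with limma 3.58.1 (R 4.3.3; eBayes, trend, two-sided). Adjusted p is Benjamini-Hochberg over those genes, with a threshold of 0.05. Fold changes are Epor-eGFP+ minus Epor-eGFP- on that scale, which understates changes of low genes. The fit was tested on simulated data with independent noise, few changed genes and no pairing. In the real data 49.0% of tested genes were called and library numbers correlated between groups. The simulation thus checks the working of the fit and not the error rate of these calls. Values by library were computed in Python 3.11.15 with pandas 2.3.3.

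The 6 genes and all lists were chosen with earlier results of these data known. From each list up to 6 called genes with the largest absolute fold change are named, and for each of the 6 genes the 5 nearest in pattern, predicted genes left out. Clec7a, Ager, Scarb2, Lamp1, Adam17, Hp, Il10ra, Nfe2l2 and markers of other cells beyond the most abundant of each list fall outside this rule and were named after their values were seen. The result of 1 regulator is not reported here.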

Additional observations from a re-analysis of the deposited data

How the results depend on the processing

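None of the 17 alternatives changed the direction of the difference of the 6 genes or moved it by more than the SD of log2 values between libraries pooled over both groups. Leaving out Epor-eGFP+ library 2 moved Cd163, Cd5l and Mrc1 by more than their smaller SD in Epor-eGFP- cells. With single libraries left out the log2 difference ran from 4.26 to 5.34 for Cd163, 4.80 to 6.08 for Cd5l, 3.67 to 4.57 for Mrc1, -1.59 to -1.34 for Msr1, -0.25 to -0.0020 for Scarb1 and 0.37 to 1.04 for Cd68. That of Adgre1 was 0.23, and ran from -0.0687 without Epor-eGFP+ library 2 to 0.4506 without Epor-eGFP+ library 1, and was -0.0506 without both libraries numbered 2. With a filter of mean 5 FPKM, 3 other scavenger receptors rose, and 1 SRCR gene rose and 0 fell. After rescaling to a common total or a common upper quartile, 8 lipid genes rose, 0 mannose receptor relatives fell and 1 shedding gene fell. Quantile normalization and a fit with no mean-variance trend each left 1 shedding gene lower. With the replicate block, 8 lipid genes rose and 3 fell, 1 shedding gene rose and 3 fell, and over all genes 3066 rose and 3335 fell. With 1 library or both libraries of a number left out, 492 to 2479 genes rose and 921 to 2695 fell over all genes, the lowest without both numbered 0. Over those fits 1 to 3 scavenger receptors fell, 0 to 2 SRCR genes rose and 0 to 1 fell, 0 to 1 Mrc1 relatives fell, and 0 to 1 LAMP genes fell. Of heme genes 2 to 7 rose and 0 to 1 fell, of lipid genes 2 to 8 rose and 0 to 2 fell, of shedding genes 0 to 1 rose and 0 to 2 fell, and of regulators 3 to 6 rose and 4 to 10 fell. Without both libraries numbered 0, further named genes lost their call by limma adjusted p. These were Blvrb (0.0501), Slc48a1 (0.0655), Fth1 (0.0757), Pdzk1 (0.0539), Lipa (0.0905), Fabp5 (0.0928), Rhbdf2 (0.0647), Loxl3 (0.0781), Ssc4d (0.157) and Pparg (0.0593). The cause of these changes was not tested. FPKM hold no depth, so the counting error of low values, such as Cd163 and Cd5l in Epor-eGFP- cells, is unknown.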

Other observations

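Ratios to Adgre1, chosen after the values were seen, are given as values. The Cd163 to Adgre1 ratio was 0.805, 0.498 and 1.11 in the Epor-eGFP+ libraries, against 0.0318, 0.0202 and 0.0229 in the Epor-eGFP- libraries. The Mrc1 to Adgre1 ratio was 1.03, 0.821 and 1.41 in the Epor-eGFP+ libraries, against 0.0554, 0.0669 and 0.0648 in the Epor-eGFP- libraries. For Scarb1 it was 0.473, 0.574 and 0.375 in the Epor-eGFP+ libraries, against 0.511, 0.603 and 0.666 in the Epor-eGFP- libraries, and the groups overlapped. The Cd68 to Adgre1 ratio was 2.07, 1.70 and 2.12 in the Epor-eGFP+ libraries, against 1.28, 1.16 and 1.80 in the Epor-eGFP- libraries, and the groups overlapped because Epor-eGFP+ library 1 lay below Epor-eGFP- library 2.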
